A study of Homo sapiens with 4 samples.

Results

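The 40S ribosomal protein genes encode the protein part of the small ribosomal subunit, which holds the mRNA and the initiator tRNA while a start codon is sought. Their mRNAs were followed in wild-type (WT) and THUMPD1 knockout (KO) cells. Members were the entries of the count table whose symbol is RPS followed by A or by a number with at most an A or X, together with FAU, which encodes eS30 fused to a ubiquitin-like domain, and GNB2L1, the older symbol of the scaffold protein RACK1. This gave 31 of the 18917 genes in the table, and all 31 were among the 13128 genes tested. No entry was named RPS10 alone, so it is not among the members.

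The labels give the cells as HEK293 and the study as HEK-293T, a line from human embryonic kidney. It was grown in DMEM with fetal bovine serum and 2 mM glutamine, with no treatment. There were 2 WT and 2 KO libraries of total RNA depleted of ribosomal RNA. The KO line was made with CRISPR-Cas9 and a pair of guides, and its cells were sorted singly, so that genotype and clonal origin cannot be told apart. The libraries are not stated to come from separate cultures, and p-values measure only the spread between them, which may be technical. In total RNA, fewer copies per cell and a different makeup of the culture cannot be told apart.

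THUMPD1 is the tRNA-binding partner of the acetyltransferase NAT10, and together they place N4-acetylcytidine on leucine and serine tRNAs. NAT10 also acetylates the RNA of the small subunit. Ribosomal protein genes as a class are transcribed at high rates, and their mRNAs begin with a C followed by a run of pyrimidines, the 5′ terminal oligopyrimidine (TOP) motif, through which mTOR and LARP1 set their translation and stability. A fixed set of 1 copy of each protein is needed per subunit, and surplus proteins are degraded.

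The sequences at the start sites show this shared motif and which members lack it at the annotated start. A single annotated start was taken per gene, and whether transcription begins there in these cells was not tested. Windows of 20 bases before and 20 bases after the annotated start were taken from RefSeq (GRCh38.p14), which matched 25 of the 31 members. RPS2, RPS15A and RPS20 were among those with no entry. The members shown are 5 with the highest fold changes in the KO, RPS25, which was lower, and RPS28, which lay near 0. Capitals mark the run of C and T that covers the first transcribed base, where it has at least 5 bases.
RPS29 (chr14:49598691-49598730, minus strand): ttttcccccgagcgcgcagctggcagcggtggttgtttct
RPS21 (chr20:62387083-62387122, plus strand): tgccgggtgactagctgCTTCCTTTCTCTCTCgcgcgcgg
RPS3 (chr11:75399498-75399537, plus strand): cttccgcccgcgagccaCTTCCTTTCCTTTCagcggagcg
RPS24 (chr10:78033843-78033882, plus strand): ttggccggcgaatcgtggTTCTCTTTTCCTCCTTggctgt
GNB2L1 (chr5:181243887-181243926, minus strand): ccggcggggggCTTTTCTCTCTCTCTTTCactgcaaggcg
RPS25 (chr11:119018324-119018363, minus strand): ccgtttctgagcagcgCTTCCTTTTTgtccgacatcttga
RPS28 (chr19:8321476-8321515, plus strand): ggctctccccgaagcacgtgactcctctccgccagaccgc

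A C followed by at least 4 C or T stood exactly at the start in 18 of the 25 members (72%), against 5.35% of the 10587 tested genes with a window and 4.04% of all 27305 windows. RPS7, RPS15, RPS26, RPS27A, RPS28, RPS29 and RPS4X lacked it there. Within 10 bases of the start, 23 of 25 (92%) had such a run, against 33.8% of the tested genes, and RPS29 and RPS4X did not. Motifs were also searched on both strands of the window from 250 bases before to 50 bases after the start. The ETS core CTTCCG was found in 18 of 25 (72%) against 32.0% of tested genes, the YY1 core AAGATGGC in 4 (16%) against 5.20%, the Sp1 box GGGCGG in 14 (56%) against 70.6%, the E-box CACGTG in RPS28 alone (4%) against 10.0%, and the TATA sequence TATAAA in RPS3 and RPS28 (8%) against 5.59%. The motifs were searched independently of each other, and a match describes letters in the window only.

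Library totals ran from 7875722 to 11362363 counts, and 3 counts corresponded to 0.259 to 0.391 CPM, the count scaled to the library size. THUMPD1 had 356 and 468 counts in WT and 71 and 58 in KO, and was lower by edgeR's quasi-likelihood test (log2 fold change −2.93 ± 0.17 SE, Benjamini-Hochberg adjusted p = 1.27e-12). Of 8 embryonic kidney markers all were tested and 6 were not called. KRT18 was lower (log2 fold change −0.35) and LHX1 rose from 6 counts in each WT library to 37 and 27 in KO. The markers of other cell types had at most 5 counts except COL1A1. COL1A1 had 194 and 228 counts in WT and 246 and 197 in KO, more than LHX1, PAX2, EYA1, WT1 or KRT8. Replicates of 1 genotype differed by more than sampling noise, with a chi-square per degree of freedom of 4.14 in WT and 7.20 in KO.

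Most 40S mRNAs were modestly higher in KO cells. Of the 31 members, 17 rose, 3 fell and 11 did not pass the threshold of 0.05 (edgeR, adjusted over all tested genes), where 8.79% of all tested genes were called higher and 12.1% lower. The 17 rose by 11.7% to 26.5%, with RPS20 at the top. The median log2 fold change of the members was 0.17, against 0.01 over all tested genes, and 27 of the 31 lay above 0. In 23 members both KO libraries lay above both WT libraries, against 30.4% of tested genes, and in 3 both lay below, against 30% of tested genes. The size of the group that rose depended on single libraries and on scaling. It was 9 without KO replicate 1 and 11 without WT replicate 2, and 24 rose and 1 fell when counts were scaled by library size alone.

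**Figure D1:**
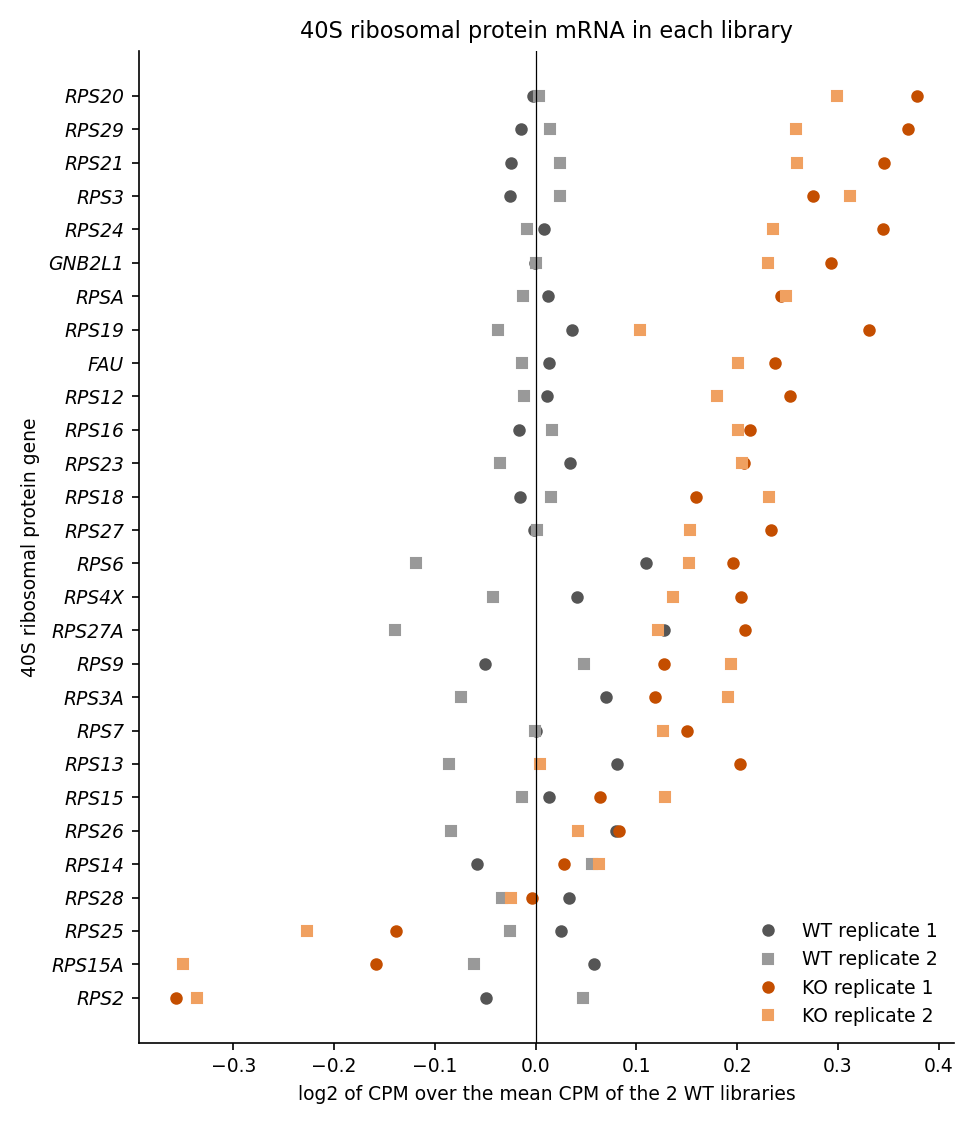
Each row is 1 of 28 40S genes and each point a library, as the log2 of its CPM over the mean CPM of the 2 WT libraries (grey, WT; orange, KO), ordered by fitted fold change. KO points lie right of both WT points in 20 of these genes and left of both in RPS25, RPS15A and RPS2.

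The head of the subunit, which binds the anticodon end of tRNA and moves during translocation, contributed 13 members, of which 8 rose and 1 fell (median log2 fold change 0.21). The body and platform contributed 18, of which 9 rose and 2 fell (0.17). The shares that rose were 61.5% in the head and 50% in the body, and those that fell 7.69% and 11.1%. Over all tested genes 8.79% were called higher and 12.1% lower. The 2 body members that fell, RPS2 and RPS15A, lie on chromosome 16, where 50.3% of tested genes were called lower. Without KO replicate 1 the number that rose was 6 in the head and 3 in the body, and without WT replicate 2 it was 7 and 4, while library size scaling gave 10 and 14. The difference between these parts was not tested.

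RPS20 encodes uS10, a head protein that the ubiquitin ligase ZNF598 marks on collided ribosomes, and it had the highest fold change. Its CPM were 840 and 843 in WT and 1094 and 1035 in KO, which gave a log2 fold change of 0.34 ± 0.06 (SE; edgeR adjusted p = 0.000132). RPS29, a zinc-binding head protein, had 130 and 132 CPM in WT and 169 and 157 in KO. Its log2 fold change was 0.31 ± 0.07 (adjusted p = 0.00223). In both genes the 2 WT libraries almost coincided and the 2 KO libraries were apart from them. RPS21 encodes a small protein of the subunit's body, and its CPM were 181 and 188 in WT and 234 and 221 in KO. The log2 fold change was 0.30 ± 0.07 (adjusted p = 0.00141). RPS3 lines the mRNA entry channel. It had 854 and 884 CPM in WT and 1052 and 1080 in KO, which gave 0.29 ± 0.06 (adjusted p = 0.000586). KO replicate 2 was the higher of the KO pair here, unlike in the other genes of this paragraph.

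RPS24, in the body, had 1235 and 1221 CPM in WT and 1560 and 1446 in KO (log2 fold change 0.29 ± 0.06, edgeR adjusted p = 0.000872). GNB2L1, whose product RACK1 sits on the head near the mRNA exit and binds signalling kinases, had 2297 and 2299 CPM in WT and 2815 and 2696 in KO. Its log2 fold change was 0.26 ± 0.06 (adjusted p = 0.00184), and 0.45 by limma-voom with quantile normalization. RPSA encodes uS2, also known as the laminin receptor precursor, and had 1449 and 1425 CPM in WT and 1701 and 1707 in KO (0.25 ± 0.06, adjusted p = 0.00295). These 7 genes, from RPS20 to RPSA, passed the threshold in each of the 14 alternatives, the omission of each library included.

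The other 10 members that rose had log2 fold changes from 0.16 to 0.22, and each lost its call when at least 1 library was left out. RPS19, a head protein whose gene is the most often mutated in Diamond-Blackfan anaemia, is an example. It had 2116 and 2012 CPM in WT and 2596 and 2218 in KO, and its log2 fold change of 0.22 ± 0.07 (adjusted p = 0.0182) was 0.10 without KO replicate 1 and 0.33 without KO replicate 2, and it was not called by DESeq2 (adjusted p = 0.224). FAU, RPS12, RPS16, RPS23, RPS18, RPS27 and RPS4X were also among them, at 0.22, 0.22, 0.21, 0.21, 0.20, 0.19 and 0.17. FAU, RPS23, RPS27 and RPS4X lost their calls without WT replicate 2 or KO replicate 1, RPS12 without KO replicate 1, RPS16 without WT replicate 1, and RPS18 without WT replicate 1 or KO replicate 2. RPS27 also lost it without WT replicate 1, and RPS4X with TMM computed without chromosomes 16 and 22 (adjusted p = 0.0705) and by limma-voom, where it was 0.10 (adjusted p = 0.133).

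RPS6, the S6 kinase substrate, had the highest mean count of the members, not scaled for length. It had 2655 and 2265 CPM in WT and 2819 and 2735 in KO, with a log2 fold change of 0.17 ± 0.07 (adjusted p = 0.0613). Both KO libraries were above both WT libraries, but the WT pair was spread more widely than the KO pair, and leaving out WT replicate 2 gave 0.06, against 0.29 when WT replicate 1 was left out. RPS6 passed the threshold in 7 of the 14 alternatives, with 0.26 under library size scaling (adjusted p = 0.00343) and 0.61 by limma-voom with quantile normalization (adjusted p = 7.86e-07). RPS27A, which encodes a fusion of ubiquitin with eS31, RPS9, RPS3A and RPS7 had log2 fold changes of 0.17, 0.16, 0.16 and 0.14 with adjusted p from 0.0555 to 0.110, and all 4 passed the threshold in some alternatives, library size scaling among them. RPS13, RPS15 and RPS26 were at 0.11, 0.10 and 0.07. The value of RPS26, which contacts mRNA upstream of the start codon, was −0.02 without WT replicate 2.

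RPS14 and RPS28 lay near 0. RPS14, the gene whose loss contributes to the 5q- syndrome, had 759 and 821 CPM in WT and 805 and 825 in KO (log2 fold change 0.04 ± 0.06, edgeR adjusted p = 0.638), and its value turned to −0.01 without WT replicate 1. RPS28 had 258 and 247 CPM in WT and 252 and 248 in KO. Its log2 fold change of −0.01 ± 0.06 (adjusted p = 0.911) turned to 0.07 under scaling by library size alone. WT and KO libraries of RPS14 and RPS28 overlapped.

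RPS2, RPS15A and RPS25 were lower in KO. RPS2 encodes uS5, which lies at the mRNA entry channel, is methylated by PRMT3 and is marked by the ligase RNF10. It had 2317 and 2477 CPM in WT and 1871 and 1899 in KO. Its log2 fold change was −0.35 ± 0.06 (adjusted p = 0.000126), and it passed the threshold in every alternative. RPS15A, of the body, had 461 and 424 CPM in WT and 397 and 347 in KO. Its log2 fold change was −0.25 ± 0.07 (adjusted p = 0.00851). RPS25, a head protein required by several viral internal ribosome entry sites, had 516 and 498 CPM in WT and 461 and 433 in KO, which gave −0.18 ± 0.06 (adjusted p = 0.0319). In all 3 genes both KO libraries were below both WT libraries. The calls of RPS15A and RPS25 were lost without WT replicate 1, without KO replicate 2 and under library size scaling, so that 1 member was called lower in each of these fits. RPS25 was also not called under upper-quartile scaling (adjusted p = 0.0638) or by limma-voom with quantile normalization (−0.12, adjusted p = 0.144).

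**Figure D2:**
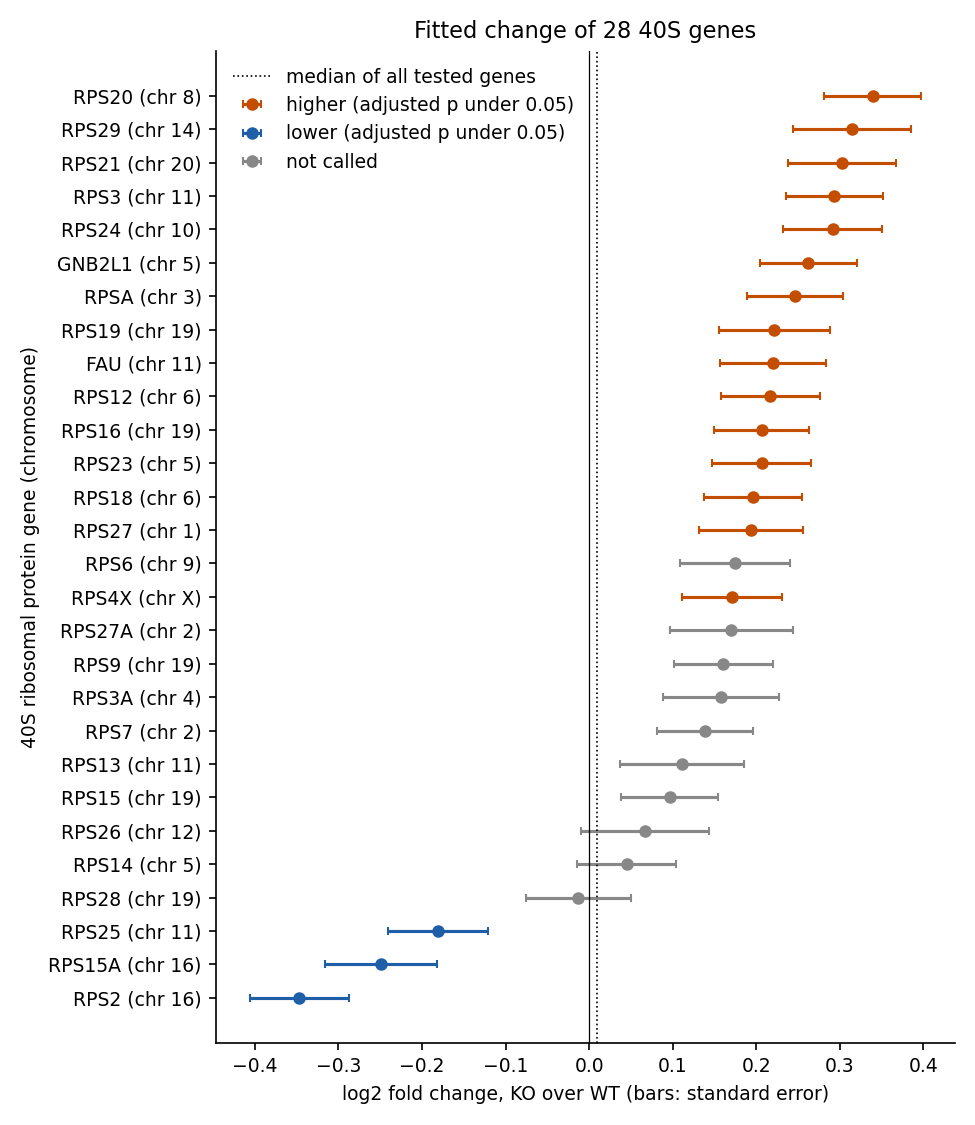
Fitted log2 fold change of 28 40S genes, KO over WT, with a standard error derived from edgeR's F statistic, coloured by call, with the chromosome in brackets. The points run from 0.34 for RPS20 to −0.35 for RPS2, and the dotted line marks the median of all tested genes at 0.01.

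RPS2 and RPS15A are the only members on chromosome 16, which as a whole was lower in these KO libraries. Of 576 tested genes placed there, 87.3% had a log2 fold change under 0 and 50.3% were called lower, with a median of −0.44. On that chromosome 351 genes had a lower fold change than RPS2 and 400 a lower one than RPS15A. THUMPD1 itself also lies there. The part of chromosome 16 in the result for RPS2 and RPS15A was not tested. Chromosome 22, with a median of −0.42, holds no member. RPS25 lies on chromosome 11, where the median of 740 tested genes was 0.04, 8.24% were called lower and 174 had a lower fold change than RPS25. Among the 29 members off chromosome 16, 17 rose, RPS25 fell and 11 were not called, with a median of 0.19. Over the 12140 tested genes placed off chromosomes 16 and 22, 9.32% were called higher and 9.12% lower, with a median of 0.03.

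The summed 40S counts made up 2.68% and 2.61% of all counts in WT and 3.19% and 3.03% in KO, or 2.65% ± 0.0498 (SD, n = 2) against 3.11% ± 0.109, a ratio of 1.17. The ratio was 1.21 without RPS2, and 1.13 when the 100 genes of highest mean count were left out of the totals. With 2 libraries in each group an exact permutation test cannot give a two-sided p under 0.33, so no test is given. The 60S share rose in parallel, from 3.68% ± 0.0972 to 4.31% ± 0.0800. The ratio of 40S to 60S counts was 0.716 and 0.724 in WT and 0.729 and 0.712 in KO, and the groups overlapped.

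To see which members moved apart from the subunit as a whole, the test was repeated with the summed 40S count as the library size. By this measure 3.31% of all tested genes were called higher and 24.3% lower. Of the members, RPS20 was higher relative to the 40S total (log2 fold change 0.19 ± 0.07, edgeR adjusted p = 0.0303). RPS2, RPS15A and RPS25 were lower, at −0.49, −0.40 and −0.33 (adjusted p = 2.20e-06, 7.51e-05 and 0.000396). The members make up this total, so that a fall of RPS2 shifts the others upward. RPS2, RPS15A and RPS25 kept these calls without each library in turn and with size factors estimated over the members, whereas RPS20 kept its call only without KO replicate 2 among the omissions. With size factors estimated over the members RPS20 also lost its call, and RPS28 was called lower at −0.20 (adjusted p = 0.0291).

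RPS2 took 8.79% ± 0.540 (SD, n = 2) of the 40S counts in WT and 6.24% ± 0.206 in KO. RPS15A went from 1.62% ± 0.0715 to 1.23% ± 0.0875 and RPS25 from 1.86% ± 0.0199 to 1.48% ± 0.0304. RPS20 went from 3.08% ± 0.0528 to 3.52% ± 0.0585. For the other 27 members no departure from the summed 40S count passed the threshold in the main fit. In other fits some did. RPS28 was called lower with size factors estimated over the members and with replicate number as a block. RPS3, RPS24 and RPS21 were called higher with that block, at 0.15, 0.14 and 0.15.

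Other groups around the 40S subunit were read from lists compiled by hand. The large subunit gave a similar picture. Of 45 tested 60S protein genes 22 rose (48.9%) and 3 fell (6.67%), with a median log2 fold change of 0.16. Over all tested genes 8.79% were called higher and 12.1% lower. RPL22 and RPL23 were highest (0.39 and 0.34), and RPL39 and RPL41 lowest (−0.46 and −0.36). The number that rose was 12 without WT replicate 2 and 14 without KO replicate 1. Of 18 other mRNAs known to carry a TOP motif, which encode elongation factors, initiation factor subunits and other proteins, 9 rose and none fell (median 0.22). At an unadjusted p under 0.05, edgeR called 13 of them higher and 0 lower, against 2027 and 2343 of all 13128 tested genes. DESeq2 and limma-voom called 0 of them lower, against 1112 and 1349 of all tested genes. With library size scaling 16 rose. IPO7, a nuclear import receptor, and EIF3E, a subunit of eIF3, were highest at 0.64 and 0.49, and EEF2 and EIF3H were the lowest of those that rose at 0.29 and 0.31. None of these 18 genes lies on chromosome 16 or 22.

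Among members with a RefSeq window, the 18 with the TOP sequence exactly at the annotated start held 12 that rose and 1 that fell, with a median log2 fold change of 0.21. The 7 without it held 2 that rose, with a median of 0.14. The 2 were RPS29 and RPS4X, the only members with a window and no such run within 10 bases of the start. Over all tested genes 8.79% were called higher and 12.1% lower. The difference between the 18 and the 7 was not tested. RPS29, which rose by 0.31, has no such run at the start in the window shown above, and RPS25, which fell by 0.18, has one.

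Factors that assemble the small subunit moved the other way. They include the UTP complexes, the U3 particle and the late cytoplasmic factors, which process the 18S rRNA precursor and place the proteins. Of 54 tested factors 22 were lower (40.7%) and 0 higher, with a median of −0.21. Over all tested genes 12.1% were lower and 8.79% higher. An unadjusted p under 0.05 was reached by 26 in the lower and 0 in the higher direction. Over all 13128 tested genes it was reached by 2343 and 2027. DESeq2 and limma-voom gave 15 and 20 lower and 0 higher, against 1112 and 1349 lower and 643 and 1279 higher over all tested genes. Without WT replicate 2 the number that fell was 11, and without KO replicate 1 it was 15. NOL6, of the early particle, and the helicase DHX37 were lowest (−0.83 ± 0.13 and −0.69 ± 0.08, edgeR adjusted p = 6.45e-05 and 1.62e-06), and TSR1 and WDR43 were the least changed of those that fell (−0.25 and −0.26). Off chromosomes 16 and 22, 18 of 49 fell (36.7%), against 9.12% of tested genes there, with a median of −0.17. NAT10, which is also on this list, was not called (−0.15 ± 0.08, adjusted p = 0.160).

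**Figure D3:**
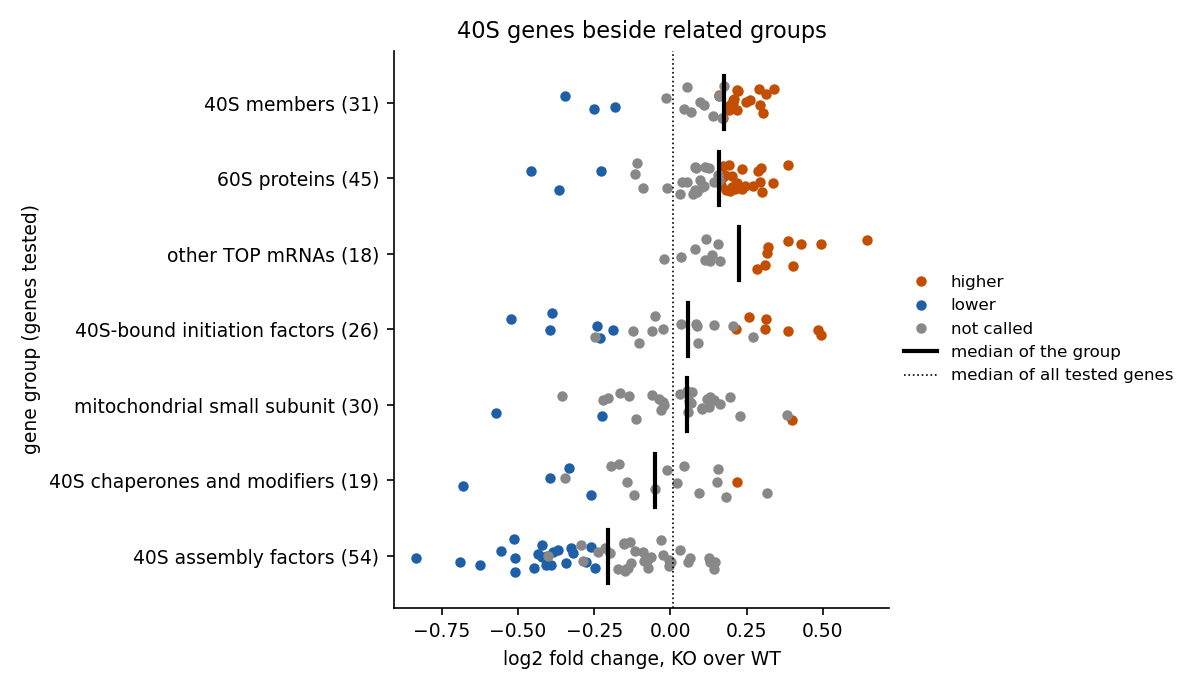
Log2 fold change, KO over WT, of each tested gene in 7 groups, coloured by call, with the median of each group (black bars) and of all tested genes (dotted line); the number in brackets is the genes tested. The medians of 40S, 60S and other TOP genes lie at 0.17, 0.16 and 0.22, and that of the assembly factors at −0.21.

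Of 19 chaperones and modifying enzymes of 40S proteins, 1 rose and 4 fell, with a median of −0.05 that turned to 0.03 under library size scaling. In the main fit these shares were 5.26% and 21.1%, against 8.79% and 12.1% of all tested genes. Off the chromosomes with medians far below the others, 1 of 15 rose and 1 fell (6.67% each). Of all tested genes there, 9.32% rose and 9.12% fell. RNF10, the ligase that marks RPS2 and RPS3, rose by 0.22 ± 0.06 (edgeR adjusted p = 0.0137), a call lost without WT replicate 1 or KO replicate 2. ZNF598, the collision sensor that marks RPS10 and RPS20, fell by 0.68 ± 0.09 (adjusted p = 7.93e-06), and OGFOD1, which hydroxylates RPS23, fell by 0.39 ± 0.11. Both lie on chromosome 16, as does the deubiquitinase USP10, which fell by 0.33. The S6 kinase gene RPS6KB2, on chromosome 11, fell by 0.26 ± 0.08.

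Of 26 initiation and recycling factors that bind the 40S subunit 7 rose and 6 fell (median 0.06), and 3 fell without KO replicate 1. In the main fit the shares that rose and fell were 26.9% and 23.1%, against 8.79% and 12.1% of all tested genes. Off the chromosomes with medians far below the others, 7 of 23 rose (30.4%) and 4 fell (17.4%). Of all tested genes there, 9.32% rose and 9.12% fell. EIF3E and EIF2S3 were highest at 0.49 and 0.48, and EIF3C, on chromosome 16, and EIF3J were lowest at −0.52 and −0.39. EIF3E, EIF3F and EIF3H are also on the TOP list. RPS27L, the p53-responsive paralog of RPS27, had 36.5 and 40.8 CPM in WT and 54.0 and 57.5 in KO, and rose by 0.52 ± 0.11 on the log2 scale (edgeR adjusted p = 0.00112), beside 0.19 for RPS27. The read-through entry RPS10-NUDT3, whose reads cannot be divided between its genes here, was at 0.12 ± 0.06 (adjusted p = 0.134).

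The small subunit of the mitochondrial ribosome, made of proteins encoded in the nucleus, served as a comparison. Of its 30 tested genes 1 rose (3.33%) and 2 fell (6.67%), with a median of 0.06. These shares were below the 8.79% and 12.1% of all tested genes. MRPS21 rose by 0.40, and MRPS34, on chromosome 16, and MRPS26 fell by 0.57 and 0.22.

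The members have short transcripts. Their reference transcripts in GENCODE 44 had a median length of 741 bases and 151 codons, against 3493 bases and 487 codons over the tested genes, and the median 5′ untranslated region was 45 bases against 146. Leucine made up a median of 8.28% of codons against 9.74%, and serine 4.79% against 7.59%. Of the leucine codons, a median of 42.9% were UUA or UUG or else CUU or CUA, against 40.9% over tested genes. RPS12 had the highest share (83.3%). Across the 31 members, which are not independent replicates, this share had r = 0.16 and rho = 0.02 with the log2 fold change, and transcript length r = −0.16 and rho = −0.25. These describe mRNA levels only, and the points share the same 4 libraries.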

How the data were processed

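For 2 WT and 2 KO libraries, a table of read counts by gene symbol was deposited without normalization. The submitters' processing notes name hg 19, whereas the study's methods give a later build, so no coordinates are given on the build of the counts, and the start-site windows carry RefSeq's own. For RNA-seq these methods name STAR, RSEM and a stranded kit, but also another depletion kit than the labels and more samples per genotype, so they may not apply to these counts. Whether counting used strand is not given in the sources used here. A deposited table of the authors' own comparison (fold changes, p-values) was not used.

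Counts were tested with edgeR 4.0.16 in R 4.3.3 (glmQLFit, glmQLFTest, TMM) on genes that reached 1 CPM in 2 or more libraries, and p-values were adjusted by Benjamini-Hochberg and called under 0.05. CPM use TMM-scaled library sizes, ± is the SE of a log2 fold change, and means carry the SD. This SE was derived as the absolute log2 fold change over the square root of the F statistic of edgeR's test. Fits were tested on simulated data. Chromosomes came from RefSeq, 12090 genes by symbol and 937 by synonym. Reads shared with processed pseudogenes make member counts uncertain. Counting error only is covered by the floor of 3 counts.

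The rule names all 31 members, some of which are not reported here, with fuller statistics for the 6 highest and 6 lowest, the highest mean count, and those whose call or direction changes without a library or under library size scaling. Of other lists, the 2 highest and 2 lowest called genes are named. Members and lists were chosen with earlier results of these data known. Alternatives used DESeq2 1.42.0, limma 3.58.1, other scalings, filters and a threshold of 0.01, the replicate block, and the omission of each library.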

Additional observations from a re-analysis of the deposited data

How the results depend on the processing

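Leaving out a library leaves 1 sample in a genotype, which is assumed to vary like the other group. Of 434 refits of single members, 358 kept the direction and side of the threshold, 43 lost a call, 27 gained one and 6 changed sign without any call. The sign changes were RPS26 at −0.0169 without WT replicate 2 (up to 0.147 without others), RPS14 at −0.0106 without WT replicate 1 (up to 0.104), and RPS28 at 0.0717 (library size alone), 0.0125 (upper quartile), 0.0197 (limma-voom with quantile normalization) and −0.0467 to 0.0198 without single libraries. All genes called numbered 2748, against 1594 under a threshold of 0.01, 1755 by DESeq2 and 1620 to 2591 without single libraries. Their split was 1154 higher and 1594 lower, against 2081 and 1158 with library size alone, which moved the median of all genes from 0.01 to 0.09. Members that rose numbered 17, against 8 at an adjusted p of 0.01 and 9 to 16 without single libraries, and those that fell 3, against 1 with library size alone and 1 to 3 without single libraries.

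The median log2 fold change of the members (0.17) was 0.26 with library size alone, 0.21 with limma-voom and 0.15 to 0.21 without single libraries. That of 60S genes (0.16) was 0.24, 0.18 and 0.14 with library size alone, upper quartile and TMM without chromosomes 16 and 22. That of the mitochondrial small subunit (0.06) was 0.140, 0.0810 and 0.0350 in the same order, and 0.0143 to 0.0531 without single libraries. The ratio of 40S shares (1.17) was 1.13 without the 100 genes of highest mean count. The causes were not tested.

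The replicate numbers were not taken to pair the samples, since deviations of same-numbered libraries had a correlation of 0.02. With the replicate block 3222 genes were called, among them 21 members higher and 3 lower, and 8 members departed from the 40S total instead of 4.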
